A study of Mus musculus with 3 samples.

Results

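Among blood T cells of melanoma-bearing mice, 168 of 5652 kept cells held RNA of at least 3 of 7 platelet genes, and these carrier cells are described here. They were chosen by measured values: a cell of the blood library (PBMC, peripheral blood mononuclear cells) was kept if it had 500 or more genes and no more than 10% of its counts from mitochondrial genes, and it was a carrier if at least 3 of Pf4, Ppbp, Nrgn, Gng11, Clec1b, Gp9 and Itga2b had at least 1 UMI (a unique molecular identifier, counted once for each captured RNA molecule). The carriers were 2.97% (95% interval 2.55–3.45) of the kept blood cells, and the whole series had 18920 kept cells. Of the 168 carriers, 165 also held T cell RNA, defined as a UMI of at least 3 of the 7 T cell receptor complex and CD8 genes Cd3e, Cd3d, Cd3g, Trac, Trbc2, Cd8a and Cd8b1. They are called carrier T cells below. The other kept blood cells numbered 5484, of which 5479 held T cell RNA. The levels of the 7 rule genes in the carriers follow from the choice and are given as a description.

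Platelets are cell fragments without a nucleus that megakaryocytes shed into the blood, and they keep RNA made in the megakaryocyte. Activated platelets adhere to leukocytes, in part through P-selectin on the platelet and its ligand PSGL-1 (the product of Selplg) on the leukocyte. Blood CD8 T cells comprise effector cells, which carry granzymes and home to tissues, and cells with the lymph node homing receptor gene Ccr7, which recirculate through lymph nodes.

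The study transferred naive P14 cells into C57BL/6 mice. P14 cells are CD8 T cells whose transgenic receptor sees the viral peptide GP33-41 (of lymphocytic choriomeningitis virus, LCMV) on H-2Db, and the donors of these cells also carried a reporter of TCF-1, TCF-1-GFP. The hosts had been engrafted under the skin 8 days earlier with B16.Gp, a B16.F10 melanoma line that expresses the LCMV glycoprotein. The PBMC library and the library of the tumour-draining lymph node (TdLN) were taken 16 days after the transfer, with a sort for CD8 T cells that were CD45.1+ and CD44+, and a memory library, taken on day 200 of an acute LCMV infection, was sorted as KLRG1- CD127+ CD62L+ cells of the same kind. All samples carry the labels C57BL/6 and WT. Each group was 1 library, the number of mice behind it is not given, and no p-value was computed, since cells of 1 library are not replicates. Intervals below are at 95% and cover counting error alone.

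The 3 libraries held 6165 PBMC, 7503 TdLN and 8321 memory barcodes with 49592338, 72062695 and 72283532 UMIs. After the filter, PBMC cells had a median of 7085 UMIs, TdLN cells of 9674 and memory cells of 9956. Under the same rule, 0 of 6265 TdLN cells were carriers, with an interval of up to 0.0589%, and 3 of 7003 memory cells were, or 0.0428% (0.00884–0.125). The 3 memory cells held 8 to 10 rule gene UMIs each, and 2 of them had T cell RNA. The blood library therefore held nearly all cells that met the rule, although its cells were sequenced to the lowest depth of the 3 libraries. PBMC shared 15 barcodes with TdLN and 10 with memory, and 0 of these were carriers.

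**Figure D1:**
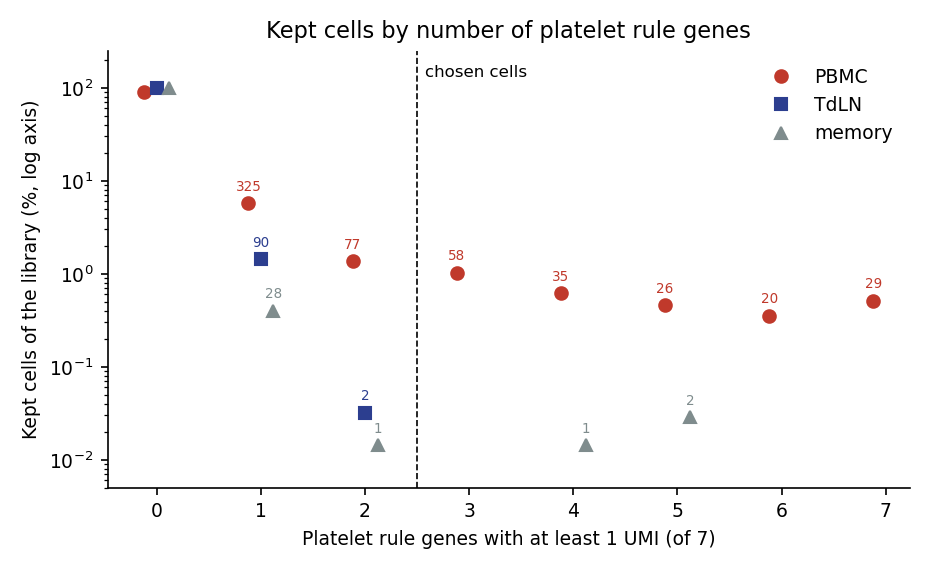
Share of kept cells (vertical, percent, log axis) by the number of platelet rule genes with at least 1 UMI (horizontal), with cell numbers printed for 1 or more genes and bins without cells left out. In PBMC the numbers fall from 325 cells with 1 gene to 20 with 6 and 29 with all 7, whereas 0 TdLN cells have more than 2.

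The number of rule genes per blood cell had no gap at the threshold. Of the kept PBMC cells, 5082 had none of the 7 genes, 325 had 1, 77 had 2, 58 had 3, 35 had 4, 26 had 5, 20 had 6 and 29 had all 7. Just inside the threshold, 69.0% of the 58 cells with 3 genes had Pf4 and 81.0% had Gng11. Just outside it, 48.1% of the 77 cells with 2 genes had Pf4 and 63.6% had Gng11. The load of a carrier T cell was small: the 7 genes together gave 3 UMIs in the lowest, 8 in the median and 88 in the highest cell, with quartiles of 5 and 15. This was a median of 0.118% of the cell's UMIs and at most 1.09%.

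The 7 rule genes encode chemokines and surface proteins of platelets and signalling proteins found in them. Pf4 and Ppbp lie next to each other and encode platelet factor 4 and pro-platelet basic protein, chemokines of the alpha granule. Gp9 and Itga2b encode subunits of the von Willebrand factor and fibrinogen receptors, Clec1b encodes the podoplanin receptor CLEC-2, Gng11 a G protein gamma subunit, and Nrgn the calmodulin-binding protein neurogranin. All values are CPM, counts per 1000000, in which the UMIs of all cells of a group are summed and are not scaled by gene length. Pf4 (mm10 chr5:90772435-90773383) was at 458.5 CPM in carrier T cells and 3.51 CPM in other T cells. It had a UMI in 82.1% of the 168 carriers and 2.26% of the other blood cells. Ppbp (chr5:90768518-90770063) was at 199 CPM in carrier T cells and 0.631 CPM in other T cells, with a UMI in 53.6% of carriers and 0.474% of other cells. Clec1b (chr6:129397297-129409335) was at 156 CPM in carrier T cells and 0.357 CPM in other T cells, with a UMI in 48.8% and 0.310% of cells. Nrgn (chr9:37544492-37552904), Gng11 (chr6:4003904-4008445), Gp9 (chr6:87778072-87779768) and Itga2b (chr11:102453297-102470122) had a UMI in 85.7%, 89.9%, 57.7% and 38.7% of carriers. In other blood cells these 4 genes had a UMI in 1.84%, 3.16%, 0.529% and 0.164% of cells. In kept TdLN cells, which are deeper, the shares with a UMI were 0.160% for Pf4, 0.670% for Nrgn, 0.0160% for Gng11, 0.447% for Clec1b and 0.208% for Itga2b, and Ppbp and Gp9 had 0 UMIs. Clec1b and Itga2b thus had a UMI in a larger share of TdLN cells than of the other blood cells. The carriers had been taken out of these blood cells, whereas no TdLN cell was taken out. This direction therefore does not hold for the blood library as a whole. No single cell dominated: the highest cell gave between 3.89% (Gng11) and 11.0% (Clec1b) of a gene's UMIs in carrier T cells.

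Short stretches at the starts of 2 rule genes are shown because Pf4 and Clec1b are the rule genes whose start regions held the motifs searched. In RefSeq (GRCm38.p6), 6 of the 7 rule genes had a start region of 250 bases before to 50 bases after the start, all but Gng11. AGATAA, a motif of GATA factors, and CCGGAA, a motif of ETS factors, were searched on both strands, and the matches do not overlap. Capitals mark the matches.
Pf4, chr5:90772448-90772477, plus strand: tTTCCGGactgggcaggcagtgaAGATAAa
Clec1b, chr6:129397317-129397346, plus strand: ccttcactcagagctgaAGATAAgagagca
The first match in Pf4 begins at base 15 after the annotated start and the second at base 37, and the match in Clec1b begins at base 38. The other 4 start regions held neither motif. Of 32851 start regions in the table, 11.2% held AGATAA and 14.9% held CCGGAA, so neither motif is rare. A match describes the letters of this window only.

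Platelet genes that the rule did not use were also higher in the carriers. Of 64 such genes on the receptor, granule, cytoskeleton, signalling and nuclear factor lists, 46 were under 1 CPM in TdLN T cells. Together these 46 gave 1241 UMIs (883 CPM) in the carriers and 438 UMIs (9.21 CPM) in other blood cells, a 95.9-fold ratio (86.0–107). In T cells alone the ratio was 83.6-fold. The limit, set after seeing the data, left out genes at 1 CPM or more in TdLN T cells, which favours a high ratio. With all their genes, the receptor list summed to 9.94-fold in carrier T cells over other T cells. The granule list summed to 1.48-fold, the cytoskeleton list to 1.95-fold, the signalling list to 1.62-fold and the nuclear factor list to 2.16-fold. At least 1 of the 46 genes was seen in 141 of 168 carriers and in 328 of 5484 other cells, with like median depths of 7093 UMIs in carriers and 7084 UMIs in others. The share of T cells with such a UMI followed the number of rule genes: it was 5.14% with none, 12.6% with 1, 33.8% with 2, 65.5% with 3, 85.7% with 4, 92.3% with 5, and 100% with 6 or 7. Cells just below the threshold therefore also held platelet RNA, at a lower share than the carriers.

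By role, the genes higher in carriers included receptors, granule proteins, contractile proteins and enzymes. A gene was compared if the higher group had 20 CPM or more, and called at 2-fold or more. Over all 4404 genes so compared between carrier T cells and other T cells, 60 were at least 2-fold higher (1.36%), 4 were at least 2-fold lower (0.0908%), and the median log2 ratio was 0.03. A gene that reached 20 CPM only in carriers had to come out higher, so the list members are given with that in view. Of 18 surface receptor genes, 11 stayed below 20 CPM in both groups, 6 reached it in carriers only and were at least 2-fold higher, and 1 reached it in both. Cd9, a tetraspanin of the platelet membrane, was at 348 CPM in carrier T cells and 13.3 CPM in other T cells (26.1-fold, 23.1–29.4). Treml1, a receptor stored in alpha granules, was at 55.0 CPM in carrier T cells and 0.357 CPM in other T cells. Gp5, Itgb3, Fcer1g and Gp1bb were 163-fold, 8.18-fold, 25.2-fold and 351-fold higher, with only 3 Gp1bb UMIs in other T cells (interval 109.5–1795). The thromboxane receptor gene Tbxa2r was at 32.9 CPM in carrier T cells and 32.8 CPM in other T cells.

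Of 12 granule genes, 8 stayed below 20 CPM, Sparc and Timp3 with 0 UMIs in carrier T cells, and 3 reached it in carriers only. These were Thbs1 (thrombospondin), with 63.6 CPM in carrier T cells and 0.315 CPM in other T cells, Clu (clusterin; 90.6-fold) and Vwf (von Willebrand factor; 255-fold). Srgn, the granule proteoglycan that T cells also make, was at 576 CPM in carrier T cells and 511 CPM in other T cells. Of 12 cytoskeleton genes, 5 stayed below 20 CPM and 4 reached it in carriers only, among them Myl9, a myosin light chain, with 129 CPM in carrier T cells and 1.16 CPM in other T cells (112-fold, 82.3–154). The actin-binding genes Parvb and Gsn were 149-fold and 5.46-fold higher, and Cald1 had 49 UMIs in carrier T cells against 1 UMI in other T cells (1665-fold, 285–67084). Tuba4a, Tpm1 and Tagln2, which reached it in both groups, were 1.63-fold, 1.74-fold and 1.18-fold apart. Of 14 signalling genes, 8 stayed below 20 CPM and 2 reached it in carriers only. These were Alox12, the platelet 12-lipoxygenase, with 70.0 CPM in carrier T cells and 0.231 CPM in other T cells (303-fold, 162–626), and Rgs18 (128-fold). Plek (pleckstrin), which reached 20 CPM in both groups, was 2.20-fold higher (1.82–2.64), and its log2 ratio was 0.97 with every cell weighted equally. The 8 nuclear factors of megakaryocytes all stayed below 20 CPM, with 35 UMIs in carrier T cells and none of Gfi1b and Meis1. Their sum was 25 CPM in carrier T cells and 11.6 CPM in other T cells (2.16-fold, 1.49–3.04), and 499.7 CPM in the platelet-like barcodes described further on.

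**Figure D2:**
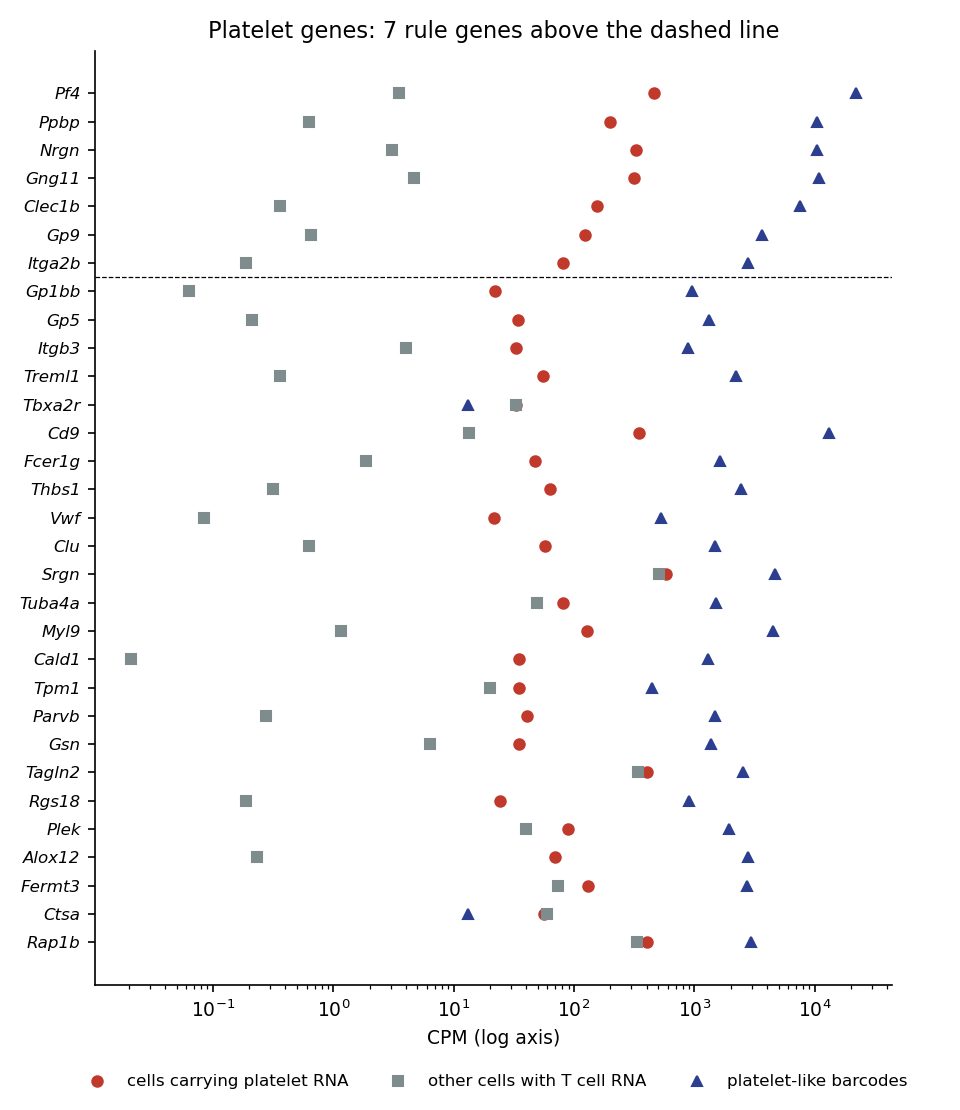
CPM (log axis) of the 7 rule genes, above the dashed line, and of the 24 platelet list genes with at least 20 CPM in carriers, in carrier T cells (circles), other T cells (squares) and platelet-like barcodes (triangles, described further on). For most genes the circles lie between the other groups, while Tbxa2r and Ctsa were near equal in carrier and other T cells and lower in platelet-like barcodes.

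T cell genes were at close to the same level in carriers and other blood cells. Cd3e, which encodes a chain of the T cell receptor complex, was at 399 CPM in carrier T cells and 391 CPM in other T cells. The 7 genes of the T cell call summed to 6056 CPM in carrier T cells and 5850 CPM in other T cells, and 0 of the 7 was 2-fold apart. Carrier T cells had a median of 7137 UMIs and 4.37% mitochondrial counts, and other T cells of 7099 UMIs and 4.38%. The 3 carriers without T cell RNA were shallower, with 1338, 1427 and 2195 UMIs, and held 93, 87 and 143 rule gene UMIs, close to or above the 88 of the highest carrier T cell.

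Platelet RNA was found in effector and in Ccr7 positive T cells, at like frequencies as counted. A T cell was called effector if at least 2 of Gzma, Gzmb, Cx3cr1, Klrg1, Zeb2 and S1pr5 had a UMI and Ccr7 had none, and Ccr7 positive if Ccr7 had a UMI and fewer than 2 of the 6 had one. Of 165 carrier T cells, 80 were effector, or 48.5% (40.6–56.4), against 46.4% (45.1–47.7) of the other T cells. Ccr7 positive cells numbered 53, or 32.1% (25.1–39.8) of carriers, against 38.3% (37.0–39.6) of the others. Cells with both signs made up 4.85% of carriers and 3.40% of others, and cells with neither 14.5% of carriers and 11.9% of others. As counted, the intervals of carriers and others overlap for each of the 4 states. Seen from the states, 3.05% (2.43–3.78) of 2622 effector cells and 2.46% (1.85–3.21) of 2152 Ccr7 positive cells were carriers, a ratio of 1.24 (0.865–1.79) that includes 1.

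**Figure D3:**
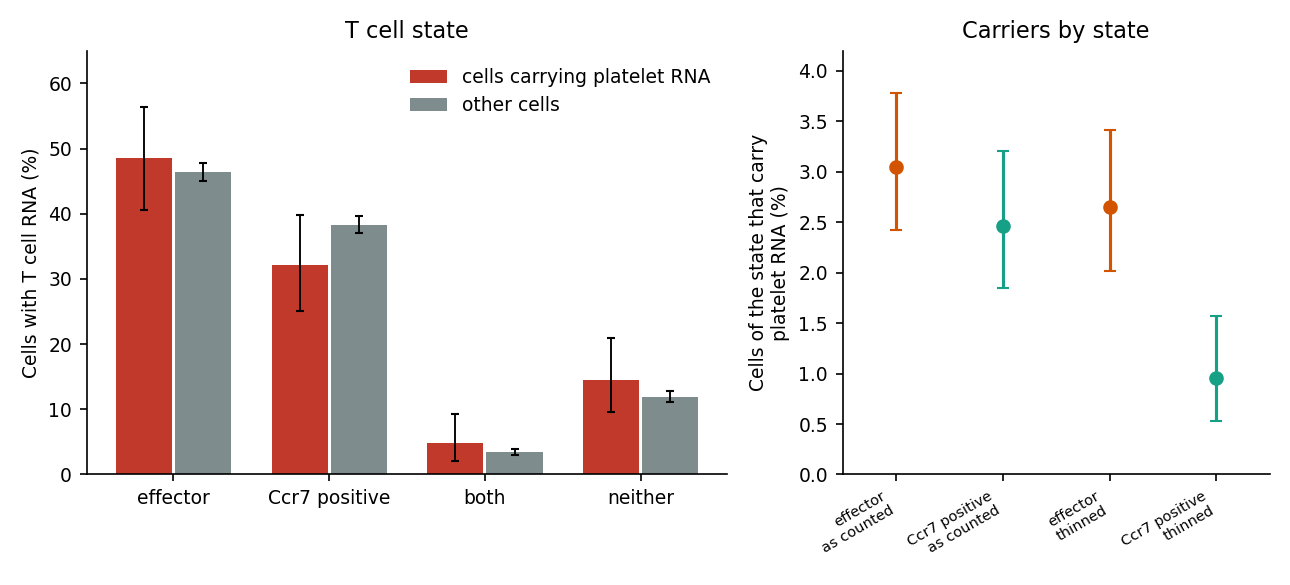
Left, share of carrier T cells and of other T cells (percent) in each state. Right, share of effector and of Ccr7 positive cells that were carriers (percent), as counted and with each cell thinned to 4200 UMIs, where it was 2.65% of effector and 0.954% of Ccr7 positive cells. Bars and points are shares with Clopper-Pearson 95% intervals.

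The states differed in depth, and the comparison of carrier shares depended on how depth was treated. Effector cells had a median of 5210 UMIs and Ccr7 positive cells of 12375. With each cell thinned to 4200 UMIs before the rule and the states were applied, which left out 504 shallower cells (14.3% of effector and 0.929% of Ccr7 positive cells), 2.65% of effector and 0.954% of Ccr7 positive cells were carriers, a ratio of 2.78 (1.55–5.28). Of the carriers that remained, 58.2% (47.8–68.0) were effector, against 41.5% (40.1–42.9) of the others, and 15.3% (8.83–24.0) were Ccr7 positive, against 30.9% (29.6–32.1) of the others, so these intervals do not overlap. Thinning also removes platelet UMIs in proportion to a cell's own depth. With the state called on the thinned counts and the carriers as counted, an alternative that was added once the values had been seen, the ratio was 1.36 (0.895–2.10). Under the rule, whose floor is 3 UMIs, effector carriers held a median of 8 rule gene UMIs (3 to 88) in 5580 UMIs, and Ccr7 positive carriers 9 (3 to 79) in 12754 UMIs. As a share this was 0.155% in effector carriers and 0.0690% in Ccr7 positive carriers. Over all cells of a state, carriers or not, effector cells held 60.2 rule gene UMIs per 100 cells (57.2–63.2) and Ccr7 positive cells 40.9 (38.2–43.6), a ratio of 1.47 (1.36–1.60). UMIs within a cell are not independent, so this interval is too narrow as a measure of cells.

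Carriers with more rule genes did not shift to one state in order. The effector share was 51.7% of T cells with 3 rule genes, 48.6% with 4, 34.6% with 5, 36.8% with 6 and 63.0% with 7, against 46.3% of T cells with none, and each of the 5 bins held between 19 and 58 cells. Other gates gave like shares in carriers and others. A Zeb2 or S1pr5 UMI was seen in 41.2% (33.6–49.1) of carrier T cells and 42.2% of the others, Gzmk with S100a4 in 33.9% (26.8–41.7) of carriers and 27.9% of others, Ccr7 with Igfbp4 in 13.9% (9.05–20.2) of carriers and 17.0% of others, and Gzmm with Tcf7 in 17.0% (11.6–23.6) of carriers and 14.5% of others. Trbv13-3, the beta chain V segment of the P14 receptor, made up 74.7% (63.6–83.8) of 79 beta V segment UMIs in carrier T cells and 68.5% of 2034 in the others. Within effector cells it was 28.6% of 21 UMIs in carriers and 28.9% of 544 UMIs in others, and within Ccr7 positive cells 95.2% of 42 in carriers and 88.5% of 1170 in others. The Trbv13-3 share of these UMIs thus differed far more between the states than between carriers and others. Only 51 of 165 carrier T cells had a beta V segment UMI, so this is not a count of P14 cells.

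Platelet genes outside the rule were higher in carriers of both states. Among effector cells, 127 of 5089 compared genes were at least 2-fold higher in carriers (2.5%) and 68 lower (1.34%). Among Ccr7 positive cells, 57 of 4125 were higher (1.38%) and 31 lower (0.752%). These comparisons share no cell. A level of 20 CPM stands for 9.70 UMIs in the 80 effector carriers and 12.9 UMIs in the 53 Ccr7 positive carriers, so many of these calls rest on few molecules. Of the genes higher in carriers, 30 were so in both states, which is 23.6% of the effector list and 52.6% of the Ccr7 positive list. The 7 rule genes are among the 30 by the choice of the cells, and of the 23 others 10 were on a platelet list. Myl9 was at 204 CPM in effector carriers and 2.05 CPM in other effector cells, and at 80.9 CPM in Ccr7 positive carriers and 0.649 CPM in other Ccr7 positive cells. Its CPM was higher in effector carriers, which held fewer UMIs in all, and it was 99.8-fold (65.4–157) and 125-fold (70.9–230) above other cells of the same state. Cd9 was at 507 CPM in effector carriers and 12.8 CPM in other effector cells, and at 249 CPM in Ccr7 positive carriers and 13.6 CPM in other Ccr7 positive cells. The P-selectin ligand gene Selplg was at 621 CPM in effector carriers and 619 CPM in other effector cells (interval of the ratio 0.891–1.13), and at 364 CPM in Ccr7 positive carriers and 347 CPM in other Ccr7 positive cells (0.917–1.20).

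**Figure D4:**
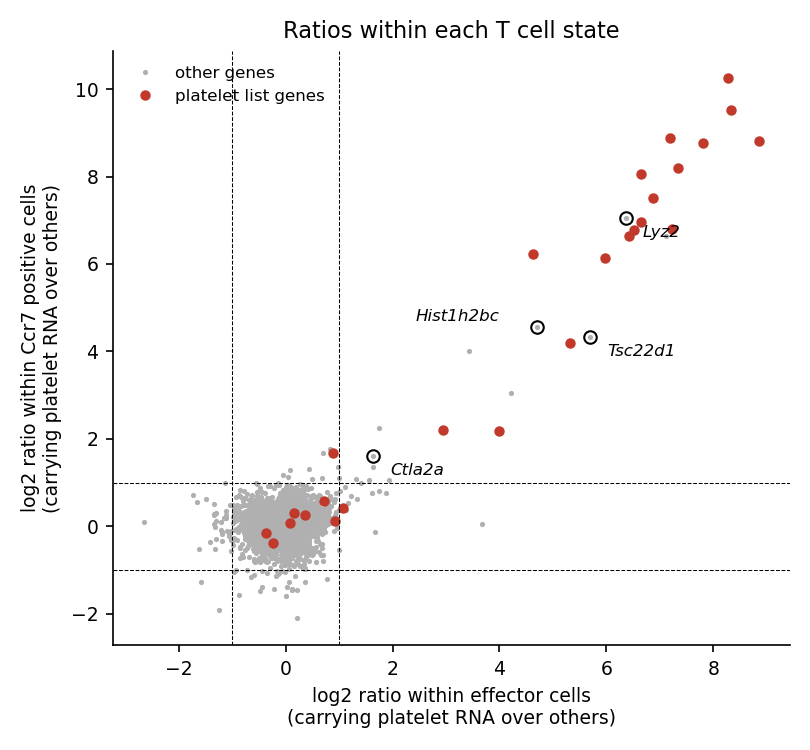
Log2 ratio of carrier T cells over other T cells within effector cells (horizontal) and within Ccr7 positive cells (vertical) for the 3890 genes compared in both, 26 of them on a platelet list (large points). Dashed lines mark 2-fold. Most platelet list genes lie far up on both axes, together with Lyz2, Tsc22d1 and Hist1h2bc, while the cloud of other genes is centred near 0.

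T cell programmes were close to equal in carriers and others. Of the lists of T cell genes, none of 19 compared effector genes outside the state call was 2-fold apart (median log2 ratio 0.09), nor was any of 15 naive and memory genes (−0.11), 12 genes for binding platelets (0.04), 7 immediate early genes (−0.10) or 5 TGF-beta pathway genes (0.02). The median over all genes was 0.03. Ccl5, a chemokine of effector cells, was at 16425 CPM in carrier T cells and 15486 CPM in other T cells. Gzma, a granzyme, was at 1553 CPM in carrier T cells and 1286 CPM in other T cells, and 12.4% of its carrier UMIs came from 1 cell. Klf2, a factor of quiescent and recirculating T cells, was at 1317 CPM in carrier T cells and 1372 CPM in other T cells. Selplg was at 486 CPM in carrier T cells and 450 CPM in other T cells (1.08-fold, 0.999–1.17). Tgfb1, which platelets and T cells both make, was 1.55-fold higher (1.27–1.87), with 80.0 CPM in carrier T cells, 51.7 CPM in other T cells and 1144 CPM in platelet-like barcodes.

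The 4 genes at least 2-fold lower in carriers were Ifit1, Ifit3, Gripap1 and Map3k8, each with between 15 and 22 UMIs in carrier T cells. Ifit1 and Ifit3, which interferon induces, were at 12.1 CPM and 15.7 CPM in carrier T cells and 26.6 CPM and 31.6 CPM in other T cells. They were 2 of 9 compared genes of the interferon list, whose median log2 ratio was −0.18, and Isg15, another, was 0.906-fold (0.650–1.23). Only 1 of the 9, Ifi27l2a, was above 1 (1.08-fold, 1.02–1.14). The list summed to 1327 CPM in carrier T cells and 1336 CPM in other T cells (0.993-fold, 0.948–1.04). Within Ccr7 positive cells, S100a6, a calcium-binding protein gene of effector and memory cells, was at 84.0 CPM in carriers and 170 CPM in others (0.493-fold, 0.370–0.644), and within effector cells at 2178 CPM in carriers and 2283 CPM in others. Among genes of at least 50 CPM none was 2-fold lower over all carrier T cells. U2af2, a splicing factor gene, was the lowest of these, with 35.0 CPM in carriers and 50.8 CPM in others (0.689-fold, 0.509–0.914), and Irf1 was 0.739-fold (0.587–0.918).

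Of the 60 genes higher in carrier T cells, 7 were rule genes, 16 were on the other platelet lists and 37 on none. Aldh2, an aldehyde dehydrogenase, was at 73.6 CPM in carrier T cells and 0.589 CPM in other T cells (125-fold, 81.6–197). Lyz2, the lysozyme of myeloid cells, was at 90.7 CPM in carrier T cells and 0.841 CPM in other T cells (108-fold, 75.1–158), and 70 of 165 carriers held it. Tsc22d1 was at 161 CPM in carrier T cells and 4.52 CPM in other T cells, the histone gene Hist1h2bc at 110.0 CPM in carrier T cells and 4.18 CPM in other T cells, and the tubulin gene Tubb2a at 70.0 CPM in carrier T cells and 5.30 CPM in other T cells. Pttg1ip and Gclm, which encodes a subunit of the enzyme that starts glutathione synthesis, were 2.97-fold and 2.83-fold higher. Ctla2a, a protease inhibitor gene, was at 1121 CPM in carrier T cells and 381 CPM in other T cells (2.95-fold) and was seen in 164 of 165 carriers. Ctla2a has a near copy, Ctla2b, which was also higher, and the reads of histone and of haemoglobin genes can likewise be split among copies, so single members of these families are uncertain. Within effector cells the tropomyosin gene Tpm2 was at 68.1 CPM in carriers and 0.423 CPM in others, and within Ccr7 positive cells Tpm4 was at 77.8 CPM in carriers and 36.5 CPM in others.

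Blood barcodes below the filter, chosen for platelet RNA and for few T cell call genes, were used as a platelet-like profile. Of the barcodes with fewer than 500 genes, 107 met the rule and had fewer than 3 T cell call genes. These platelet-like barcodes, chosen after seeing the data, had medians of 643 UMIs and 290 genes, a median of 47 rule gene UMIs, and all 7 rule genes in 72 of 107. Pf4 was at 21870 CPM in them and the T cell call genes at 592 CPM, levels that follow in part from the choice. These barcodes were chosen by the same rule as the carriers, so the rule genes are left aside here. That choice can raise other platelet genes in both groups as well. A gene that reached 20 CPM only in carriers also had to come out higher, so the counts that follow are a description. Of the 53 other genes higher in carrier T cells, 52 were at least 2-fold higher in these barcodes than in other T cells, against 10.6% of all 4397 genes off the rule. The exception was the proliferation gene Mki67, with 0 UMIs in the platelet-like barcodes. It had 33 UMIs in 13 carrier T cells, 24.2% of them in 1 cell.

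Lyz2 was at 3906 CPM, Ctla2a at 25026 CPM, Aldh2 at 2998 CPM and Hba-a1 at 2525 CPM in the platelet-like barcodes, each above its level in carriers. The mix of rule genes differed between the groups, most for cells below the threshold. The groups were cut by how many of these same genes a cell held. Their mix thus follows in part from the choice of cells and is given as a description. Pf4 made up 29.8% (27.3–32.4) of rule gene UMIs in effector carriers, 25.6% (22.4–29.1) in Ccr7 positive carriers, 26.9% (23.5–30.6) in PBMC cells with 1 or 2 rule genes, and 32.4% (31.1–33.7) in platelet-like barcodes. Gng11 made up 18.4% in effector carriers, 18.6% in Ccr7 positive carriers and 15.9% in platelet-like barcodes, but 35.7% in cells with 1 or 2 rule genes. In these cells Ppbp made up 4.84%, Clec1b 2.74% and Itga2b 1.45% of rule gene UMIs, against 15.5%, 11.1% and 4.13% in platelet-like barcodes.

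Most genes higher in carrier T cells lay close to a weighted sum of the platelet-like profile and the profile of other T cells. The weight was set on the rule genes, which also chose the cells: 2.44% platelet-like RNA, or 207 UMIs in a mean carrier T cell. Set instead on the 46 platelet genes outside the rule, it was 2.65% (225 UMIs), with 3.92% (237 UMIs) in effector carriers and 1.73% (209.5 UMIs) in Ccr7 positive carriers. Of the 53 higher genes off the rule, 46 were within 1.5-fold of the sum, 6 were above and 1, Tubb2a, below (0.551 of the sum), and the median of observed over sum was 1.05. Other T cells make up nearly all of this sum. Compared with other T cells alone, only 60 of the 4404 genes were at least 2-fold higher in carriers and 4 lower. A count over all genes therefore says little about the platelet part. Of all 4404 genes, 4326 were within 1.5-fold of the sum. Only Mki67 was at least 2-fold above it (0.0227%, 3.71 of the sum), and Gripap1, Map3k8 and Ifit1 were at least 2-fold below (0.0681%). How platelet RNA came to share a barcode with T cell RNA was not tested.

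**Figure D5:**
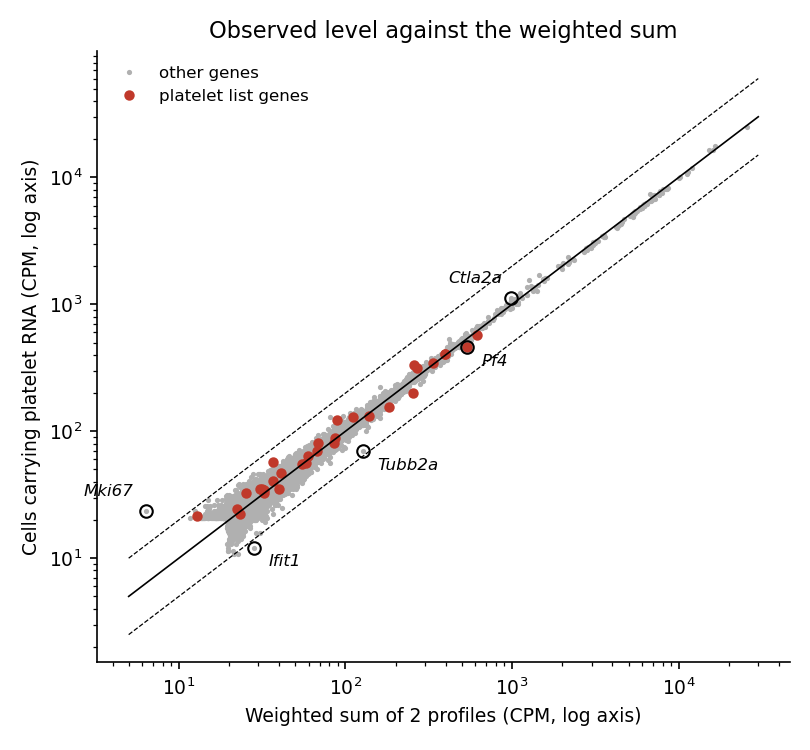
CPM in carrier T cells (vertical) against the weighted sum of platelet-like barcodes and other T cells (horizontal) for 4404 genes, both log axes, with platelet list genes as large points. The solid line marks equal values and the dashed lines 2-fold, and Mki67 lies above them with 3.71 of the sum.

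Most defining genes of other blood cells were at 0 in the carriers, with some members of the lists seen. All 9 neutrophil genes, the 8 stromal and endothelial genes and the 4 progenitor genes had 0 UMIs in carrier T cells. In other T cells these lists summed to only 0.0631, 0.315 and 0.0841 CPM. These genes thus do not set carriers apart from other T cells. Of the monocyte list, Csf1r, Adgre1, Ms4a7, C1qa, C1qb and Siglech were at 0 while Lyz2 was high, and Cst3 was at 99.99 CPM in carrier T cells and 89.9 CPM in other T cells. The whole monocyte list summed to 208.5 CPM in carrier T cells and 108 CPM in other T cells (1.93-fold, 1.71–2.17), with a UMI in 78.2% of carriers and 58.0% of others. Most of this difference was Lyz2, with 90.7 CPM in carrier T cells and 0.841 CPM in other T cells, while Ms4a6c was 0.996-fold and Cd68 1.08-fold. Of the red cell list, Hba-a1 was at 47.9 CPM in carrier T cells and 0.820 CPM in other T cells, with 26.9% of its carrier UMIs from 1 cell, while Hba-a2, Alas2 and Slc4a1 were at 0. The list summed to 68.6 CPM in carriers and 22.0 CPM in others (3.12-fold, 2.50–3.84), with a UMI in 34.5% of carriers and 16.6% of others. Most of this difference was Hba-a1. Bpgm was 0.879-fold, and Hbb-bs (2.67-fold, 0.699–7.25) and Fech (0.470-fold, 0.127–1.22) had 4 UMIs each in carriers. Of the B cell list, Cd79a, Ms4a1, Ebf1 and Pax5 were at 0 while Ighm was at 72.1 CPM in carrier T cells and 89.3 CPM in other T cells, and the list summed to 80.0 CPM in carrier T cells and 106.5 CPM in other T cells. The NK cell list summed to 60.7 CPM in carrier T cells and 55.5 CPM in other T cells, and the list of CD4 and gamma delta T cell genes, of which Cd4, Foxp3 and Cd40lg were at 0 in carriers, to 291 CPM in carrier T cells and 257 CPM in other T cells, mostly Trdc with 284 CPM in carriers and 249 CPM in others. Basophil and melanoma genes gave 1 UMI each in carrier T cells. The part of these cell types in the differences was not tested.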

How the data were processed

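The authors deposited raw UMI counts, whole numbers for each gene in each barcode, made with Cell Ranger 3.1.0 on mm10, per the submitters' processing notes. Kept barcodes had 500 or more genes and no more than 10% mitochondrial counts. Cells were called carriers and put into states as described above. No doublet caller was applied, and an alternative left out the 5% of cells with the highest UMI totals. Counts were summed over cells and divided by the total (CPM), with exact Poisson intervals. Ratios have exact conditional binomial intervals and shares Clopper-Pearson intervals (scipy 1.17.1), all at 95% and for counting error only. A gene was compared if the higher group had 20 CPM or more. Thinning drew 4200 UMIs from each cell. Named genes are the rule genes, platelet list genes with at least 20 CPM in carriers, the 8 highest and 8 lowest ratios at 50 CPM or more off these lists, up to 4 genes of each other list, and the 6 highest within each state, by the same filters. Ctla2b, Isg15, Ifit1, Ifit3, Gripap1 and Map3k8 were named after their values were seen. The carriers and the 28 gene lists were chosen with earlier results of these data known. Some genes of these lists are not reported here by name. The platelet-like barcodes, their weighted sum and the limit of 1 CPM in TdLN were chosen after seeing the data. Coordinates are from GENCODE M21, where 30934 of 31053 gene IDs were found. On simulated counts, 100 genes raised 3-fold and 100 lowered 4-fold were all recovered in each of the 3 gene comparisons. The counts were Poisson draws of summed totals, so UMIs clustered in single cells were not part of them. Changes of this size lie past the 2-fold cut, so the recovery checks the calculation only. The changed genes were drawn from those with at least 50 CPM in the other cells. Recovery of smaller changes, or of genes near 20 CPM, was not tested. A library of tumour-infiltrating cells was not analysed here.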

Additional observations from a re-analysis of the deposited data

Results flagged for a closer look

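Platelet RNA also appeared in data outside the comparisons: of the 513 blood barcodes that the filter removed, 117 met the platelet rule, or 22.8% (19.2–26.7), against 3 of 1318 removed memory barcodes (0.228%) and 0 of 1238 removed TdLN barcodes. Of the 117, 107 had fewer than 500 genes and fewer than 3 T cell call genes.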

How the results depend on the processing

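The share of carriers among kept blood cells depended on the rule: it was 4.33% with at least 2 rule genes, 1.95% with at least 4, 2.21% without Nrgn and 1.90% with thinned cells. The effector share of carriers was 58.2% with thinned cells, against 41.5% of the other T cells, and 39.4% with a Zeb2 or S1pr5 UMI as the call. The Ccr7 positive share was 15.3% with thinned cells, against 30.9% of the others, and 23.8% with the state alone thinned, and the effector over Ccr7 positive ratio was 2.78 with thinned cells and between 1.08 and 1.36 under the other alternatives. Counts of genes at least 2-fold apart, 64 for all carrier T cells, 195 within effector and 88 within Ccr7 positive cells, were 340, 943 and 731 with a minimum of 5 CPM, 15, 25 and 9 with 100 CPM, and 102, 362 and 183 with at least 4 rule genes. With totals that leave out platelet, haemoglobin, ribosomal and mitochondrial genes they were 135, 348 and 424, and the share of higher genes was 77.0%, 56.3% and 49.5%, against 93.8%, 65.1% and 64.8%, since more genes then pass 20 CPM. The ratio of the 46 platelet genes outside the rule was 114-fold with at least 4 rule genes and 83.6-fold in cells with T cell RNA only. Of 235 values of 47 named genes, 3 changed sign, all of Tbxa2r, whose ratio was near 1. No paired analysis was possible because each group had 1 library. With 1 library, variation between mice is unknown, and tissue, sort and preparation cannot be told apart.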

Other observations

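Of 9 further T cell genes, among them Trbc1, Lck, Thy1 and Cd2, 0 were 2-fold apart, and the list summed to 2080 CPM in carrier T cells and 2133 CPM in other T cells. The 6 effector genes of the state call summed to 2143 CPM in carriers and 1794 CPM in others (1.19-fold, 1.15–1.24), with 61.8% of carriers and 63.5% of others holding at least 1 of them. The highest carrier held 310 UMIs of these genes, and 12.4% of the Gzma UMIs of carriers came from 1 cell, so this interval is too narrow as a measure of cells. Ccr7 was at 188.5 CPM in carrier T cells and 199.6 CPM in other T cells. Of the inhibitory receptor list, Cd160 was 1.38-fold (1.07–1.76) and Tox 1.16-fold (0.791–1.65), and the list summed to 110.0 CPM in carriers and 84.9 CPM in others (1.30-fold, 1.10–1.52). The cell division list summed to 148 CPM in carriers and 110 CPM in others (1.35-fold, 1.17–1.55), with 41 UMIs in the highest carrier. The share of cells with a UMI of this list was not higher, at 38.8% of carriers and 39.6% of others. Mki67 was 3.62-fold higher (2.45–5.19), and Stmn1, with 18.2% of its carrier UMIs in 1 cell, was 1.16-fold (0.931–1.44), while Top2a was 0.986-fold (0.606–1.52). Cd3g and Trbc2 had a UMI in all 165 carrier T cells.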
